A study of Mus musculus with 6 samples.

Results

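CYP2B and CYP3A cytochromes are the liver's main inducible drug-metabolising enzymes, and 10 genes were followed here out of 35082 with summed transcripts: Cyp2b9, Cyp2b10, Cyp2b13, Cyp3a11, Cyp3a13, Cyp3a16, Cyp3a25, Cyp3a41a, Cyp3a44 and Por. They were chosen by name, and each gene's value is the sum of the estimated counts of its transcripts in a library. The LKO-labelled group held 3 Alb-cre; G3BP1f/f males, in which Cre under the albumin promoter, active in hepatocytes, is meant to delete G3bp1, and the control group held 3 G3BP1f/f males without Cre. The sample titles call the controls wild-type and do not name their floxed alleles. All animals carried the floxed alleles, and all ate a high-fat diet for 20 weeks, starting 8 weeks after birth. Whole liver was ground, so hepatocytes were measured together with the cells in which albumin Cre is not active. With bulk RNA of this kind, fewer cells of a type and less RNA per cell cannot be told apart.

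Each library came from another animal and held between 20899135 and 21750007 estimated counts. The LKO-labelled libraries had 30.6%, 36.3% and 37.8% of transcripts above 0 in replicates 1, 2 and 3, against 30.4%, 30.2% and 31.2% in the controls, and the fragment length assumed for LKO-labelled replicate 1 was set in another way than elsewhere. Hepatocyte markers (Alb, Apoa1, Ttr, Serpina1a, Fgb) summed to between 58700 and 103500 CPM (counts scaled to a fixed library size and adjusted between libraries with TMM factors) in the LKO-labelled livers and between 85950 and 116200 CPM in the controls. The lowest sum was that of LKO-labelled replicate 3. Of the 5 markers, 1 had a higher mean in the LKO-labelled group and 4 a lower one. G3bp1, which encodes an RNA-binding stress granule protein, measured 44.0, 30.0 and 31.5 CPM in the LKO-labelled livers against 44.1, 34.8 and 40.5 CPM in the controls, a log2 difference of -0.18 with an edgeR adjusted p of 0.909. The targeted transcript therefore did not separate the groups, and both groups are called here by their labels.

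Cytochrome P450 enzymes hold a haem group through a conserved cysteine and oxidise drugs, steroids and fatty acids in the endoplasmic reticulum. They depend on electrons that P450 oxidoreductase, the product of Por, takes from NADPH. The nuclear receptors CAR (Nr1i3) and PXR (Nr1i2) bind drugs and bile acids or respond to them and switch on CYP2B and CYP3A genes. Cyp2b10 is the usual readout of CAR in mice, and Cyp3a11 the usual readout of PXR. Cyp2b9, Cyp2b13, Cyp3a41a and Cyp3a44 are known as female-predominant in adult mouse liver, and Cyp3a16 as an enzyme of fetal and young liver.

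The 3 CYP2B genes lie side by side on the plus strand of chromosome 7 (GRCm38, GENCODE M21), Cyp2b10 at chr7:25897620-25926624, Cyp2b13 at chr7:26061497-26096197 and Cyp2b9 at chr7:26173411-26210661. The 6 CYP3A genes lie on the minus strand of chromosome 5, with Cyp3a13 at chr5:137892932-137921619 apart from the others, which include Cyp3a11 at chr5:145854426-145879964 and Cyp3a25 at chr5:145977194-146009618. Por is on the plus strand of the same chromosome at chr5:135670033-135735326. The sequences that follow show how alike the genes are in the 60 coding bases around the codon of the haem-binding cysteine, since reads that cannot tell copies apart limit what each gene's count means. They are read 5′ to 3′ from GENCODE M21 transcripts. In the CYP2B genes the stretch runs from exon 8 into exon 9 of 9, and capitals mark bases that differ from Cyp2b10. With the intron between, it covers chr7:25917405-25926102 in Cyp2b10, chr7:26201208-26210137 in Cyp2b9 and chr7:26088718-26095674 in Cyp2b13.
Cyp2b10: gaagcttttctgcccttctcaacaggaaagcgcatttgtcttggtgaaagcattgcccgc
Cyp2b9: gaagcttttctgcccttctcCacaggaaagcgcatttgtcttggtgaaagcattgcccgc
Cyp2b13: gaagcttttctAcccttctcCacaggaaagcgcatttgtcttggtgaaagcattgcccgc

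In the CYP3A genes the stretch lies within exon 12 of 13, and capitals mark bases that differ from Cyp3a11. On the minus strand it lies at chr5:145858790-145858849 in Cyp3a11, chr5:145440426-145440485 in Cyp3a16, chr5:145777990-145778049 in Cyp3a44, chr5:145698206-145698265 in Cyp3a41a, chr5:145981453-145981512 in Cyp3a25 and chr5:137895252-137895311 in Cyp3a13.
Cyp3a11: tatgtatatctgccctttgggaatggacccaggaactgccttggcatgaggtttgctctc
Cyp3a16: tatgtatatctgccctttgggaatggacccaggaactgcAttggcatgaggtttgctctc
Cyp3a44: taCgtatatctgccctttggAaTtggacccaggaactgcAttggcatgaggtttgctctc
Cyp3a41a: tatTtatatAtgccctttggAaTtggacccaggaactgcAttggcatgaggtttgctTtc
Cyp3a25: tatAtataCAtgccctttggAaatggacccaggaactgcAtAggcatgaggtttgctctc
Cyp3a13: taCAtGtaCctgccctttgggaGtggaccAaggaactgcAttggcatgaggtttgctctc

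Cyp2b9 and Cyp2b13 differed from Cyp2b10 at 1 and 2 of these bases, and the CYP3A genes differed from Cyp3a11 at between 1 base (Cyp3a16) and 7 bases (Cyp3a13). Over whole coding sequences, Cyp2b9 was 92.7% identical to Cyp2b13 and 87.8% identical to Cyp2b10. Cyp3a11 was 95.2% identical to Cyp3a41a but only 75.9% identical to Cyp3a25. Stretches of 31 bases were taken from 1 transcript per gene, the coding one of 13 exons for Cyp3a25. The share of them found in no other gene was 73.9% for Cyp2b9, 78.4% for Cyp2b10, 59.2% for Cyp2b13, 66.2% for Cyp3a11 and 52.7% for Cyp3a25. It was 99.8% for Cyp3a13 and 100% for Por, whose counts therefore do not depend on how reads were divided among copies. At the other end stood Cyp3a41a with 0.1%, since it shares 96.1% with its copy Cyp3a41b.

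Levels between genes were compared per length, as the authors' TPM (a share of all transcripts, corrected for their length) summed over each gene's transcripts. In the LKO-labelled livers the order of the mean TPM was Cyp3a11 with 992 ± 242, Cyp3a25 with 280.1 ± 104.7, Por with 104 ± 6.90, Cyp2b9 with 63.0 ± 29.6, Cyp3a13 with 47.2 ± 3.03, Cyp2b10 with 4.63 ± 0.687 and Cyp2b13 with 0.591 ± 0.350 TPM (SD, n = 3). In the controls it was Cyp3a11 with 845 ± 269.5, Cyp3a25 with 158 ± 11.7, Cyp2b9 with 86.7 ± 57.6, Por with 84.7 ± 8.98, Cyp3a13 with 51.8 ± 16.4, Cyp2b10 with 5.79 ± 2.81 and Cyp2b13 with 3.97 ± 6.53 TPM (SD, n = 3). Neighbours whose order changed between libraries, and is therefore not fixed by these data, were Cyp2b9 and Cyp3a13 in the LKO-labelled livers. In the controls they were Cyp2b9 and Por, and Cyp2b10 and Cyp2b13. Cyp2b9 and Cyp3a13, not neighbours in the controls, also changed order there. Cyp2b9 was lower in control replicate 2, at 49.9 against 70.5 TPM, and higher in the other controls. Cyp3a25 lay above Cyp2b9 in every control, with the nearest values 171 and 153 TPM in control replicate 3. Cyp3a11 was ranked 144, 80 and 99 by TPM among all genes in LKO-labelled replicates 1, 2 and 3, and 182, 100 and 96 in the control replicates.

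Of the 10 genes, 7 passed the filter on low counts and were tested with edgeR's quasi-likelihood test, two-sided, with Benjamini-Hochberg adjustment over all 12497 genes tested. None of the 7 passed an adjusted p of 0.05, and none had an unadjusted p under 0.05. Over all genes edgeR called 0 of 12497 (0%). Before adjustment, p was under 0.05 for 568 of them (4.55%). DESeq2 called 11 of 12484 genes (0.0881%), none of them a member, and gave Cyp2b13 no adjusted p. By log2 difference, 6 of the 7 lay below 0 and 1 above, with a median of -0.50, beside 6048 genes below, 6449 above and a median of 0.01 in the whole table. Scaling by library totals put 4 below and 3 above (median -0.22, beside 0.27 over all genes), as did TPM (median -0.09, beside 0.35). No change in a CYP2B, CYP3A or Por transcript was therefore detected beyond the spread between animals, and the interval given with each gene shows the range of differences that this spread allows.

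**Figure D1:**
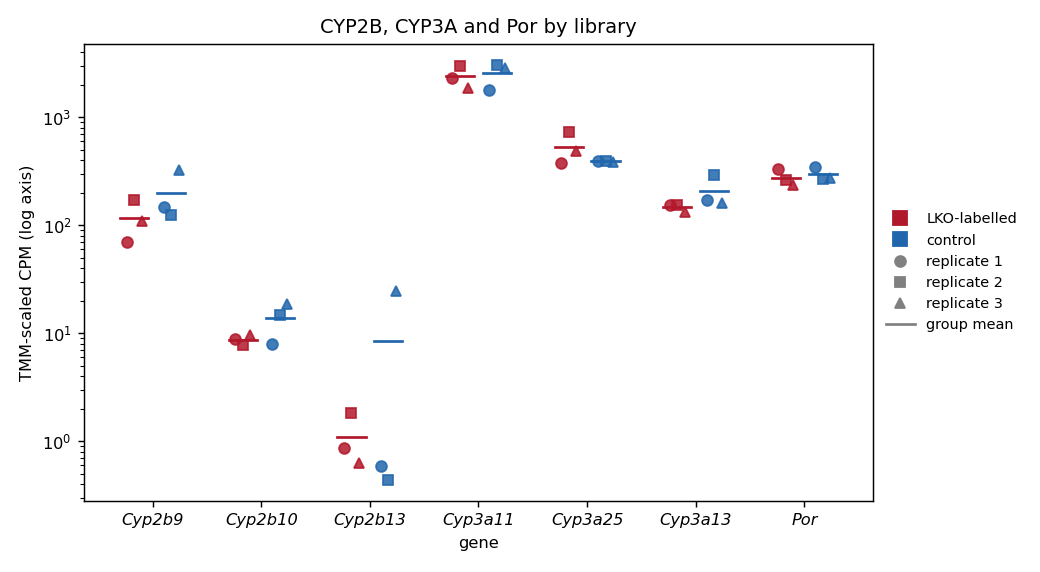
TMM-scaled CPM (log axis) of the 7 genes that passed the filter, 1 point per library, with LKO-labelled livers in red left of controls in blue, marker shapes for replicates and lines at group means (n = 3 each). The groups overlap for every gene except Cyp3a13, and control replicate 3 stands far above the other libraries for Cyp2b13 at 24.6 CPM.

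Among the CYP2B genes, Cyp2b10 is the one most tied to CAR. It measured 8.85, 7.75 and 9.60 CPM in LKO-labelled replicates 1, 2 and 3, against 7.93, 14.8 and 18.9 CPM in control replicates 1, 2 and 3. The LKO-labelled livers were close together, control replicate 1 lay among them, and the other controls lay above them. The means were 8.73 ± 0.933 CPM in the LKO-labelled livers and 13.9 ± 5.52 CPM in the controls (SD, n = 3 each). The log2 difference was -0.67 (SE 0.31, 95% interval -1.38 to 0.05), with an edgeR adjusted p of 0.845. Behind these values stood 175 to 229 estimated counts per LKO-labelled library and 149 to 396 per control library.

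Cyp2b9, the most abundant CYP2B transcript, measured 69.5, 169.5 and 109 CPM in the LKO-labelled livers and 147, 125 and 327 CPM in the controls. Control replicate 3 was the highest library and LKO-labelled replicate 1 the lowest, with the other 4 mixed between them. The means were 116 ± 50.4 CPM in the LKO-labelled livers and 199.8 ± 110.9 CPM in the controls (SD, n = 3 each), and the log2 difference was -0.79 (SE 0.44, 95% interval -1.79 to 0.22, edgeR adjusted p 0.845). Without control replicate 3 it was -0.225.

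Cyp2b13 had few counts in all livers but 1. Its estimated counts were 20, 41 and 15 in LKO-labelled replicates 1, 2 and 3, against 11, 8 and 516 in the control replicates, or 0.863, 1.81 and 0.629 CPM in the LKO-labelled livers and 0.586, 0.438 and 24.6 CPM in the controls. Control replicate 3 thus held 516 of the 535 control counts, while the other controls lay below every LKO-labelled liver. The log2 difference of -2.96 (SE 1.36, 95% interval -6.07 to 0.16, edgeR adjusted p 0.845) rested on that library and turned to 1.10 without it. Cyp2b13 made up 1.09%, 1.02% and 0.529% of CYP2B TPM in the LKO-labelled livers and 0.376%, 0.314% and 6.65% in the controls, so its share was highest where its level was. Summed over the 3 genes, CYP2B came to 79.2, 179 and 119 CPM in the LKO-labelled livers and 156, 140.0 and 371 CPM in the controls, a log2 ratio of the means of -0.82 that was -0.23 without control replicate 3.

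Control replicate 3 differed in other ways that were measured beside these genes. The female-predominant Cyp2b9 and Cyp2b13 peaked in it, but Cyp3a41a and Cyp3a44, also female-predominant, had 1 and 0 counts there. Among the controls it was lowest in the male-biased genes Mup1, Cyp7b1 and Elovl3. These are only a part of the 19 tested sex-biased genes listed further on, picked there by their p. LKO-labelled replicate 1 lay below control replicate 3 in Mup1 and Cyp7b1, and LKO-labelled replicate 2 in Cyp7b1. Every LKO-labelled liver lay above it in Elovl3. Mup1, a major urinary protein, measured 171, 472 and 895 CPM in the LKO-labelled livers and 2106, 4243 and 271 CPM in the controls. Kupffer cell and macrophage markers (9 of 9 with a lower mean in the LKO-labelled group, none at 0 throughout) summed to between 222 and 322 CPM in the LKO-labelled livers, against 230.0 and 328 CPM in control replicates 1 and 2 and 702 CPM in control replicate 3. The 4 neutrophil markers (4 of 4 with a lower mean, none at 0 throughout) summed to between 3.48 and 5.78 CPM in the LKO-labelled livers, against 6.12 and 3.89 CPM in control replicates 1 and 2 and 14.6 CPM in control replicate 3. The part of these differences in the CYP2B values was not tested.

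Cyp3a11, the main CYP3A of mouse liver and the counterpart of human CYP3A4, was high everywhere. It measured 2315, 2995 and 1877 CPM in the LKO-labelled livers and 1793, 3060 and 2882 CPM in the controls, from about 33670 to 67680 estimated counts per library. Each group held livers near the top and near the bottom of the common range. The means were 2396 ± 564 CPM in the LKO-labelled livers and 2578 ± 686 CPM in the controls (SD, n = 3 each), and the log2 difference was -0.11 (SE 0.34, 95% interval -0.87 to 0.66, edgeR adjusted p 0.965). A single transcript of 2344 bases took at least 99.99% of the gene's counts in every library.

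The direction for Cyp3a11 depended on scaling. Its log2 difference was 0.15 when counts were scaled by library totals and 0.26 on log2(TPM + 0.1). These scalings moved the median over all genes tested too, which stood at 0.01 with TMM, 0.27 with library totals and 0.35 with TPM, so Cyp3a11 lay below that median in all 3. CYP3A genes are expressed most strongly by hepatocytes near the central vein. Pericentral markers (2 of 9 with a higher mean in the LKO-labelled group, 7 lower) summed to between 8070 and 12690 CPM in the LKO-labelled livers and between 10870 and 16120 CPM in the controls. Periportal markers (6 of 7 with a higher mean, 1 lower) summed to between 4491 and 7786 CPM in the LKO-labelled livers and between 4014 and 5764 CPM in the controls. None of these markers was at 0 in every library. The part of this in the CYP3A values was not tested.

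Cyp3a13 is a CYP3A of liver and intestine, and its counts are the least open to mixing with copies among the CYP genes followed here. It measured 155, 154 and 133 CPM in the LKO-labelled livers and 172, 294 and 159 CPM in the controls. In TMM-scaled CPM it was the only 1 of the 7 genes whose groups did not overlap. That is to be read against all genes, of which 569 (4.55%) were lower in the LKO-labelled group without overlap and 598 (4.79%) higher without overlap. The nearest libraries were 155 CPM in LKO-labelled replicate 1 and 159 CPM in control replicate 3, and most of the distance between the means came from control replicate 2. The means were 147 ± 12.3 CPM in the LKO-labelled livers and 208 ± 74.2 CPM in the controls (SD, n = 3 each), with a log2 difference of -0.50 (SE 0.28, 95% interval -1.13 to 0.13, edgeR adjusted p 0.845), which was -0.17 without control replicate 2. The groups overlapped in TPM, at 44.9, 50.6 and 46.0 TPM in the LKO-labelled livers and 40.1, 70.5 and 44.8 TPM in the controls. Scaled by library totals they overlapped too, at 151.6 to 167.2 CPM in the LKO-labelled livers and 155.0 to 247.2 CPM in the controls. Of 5 intestinal markers, Cdx2 and Alpi were at 0 in every library, 1 had a higher mean in the LKO-labelled group and 2 a lower one, and all 5 summed to between 183 and 255 CPM in the LKO-labelled livers and between 222 and 307 CPM in the controls.

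Cyp3a25, an adult liver CYP3A, was the only tested member with a log2 difference above 0 under TMM scaling. It measured 379.8, 725 and 484.5 CPM in the LKO-labelled livers and 397, 392 and 382 CPM in the controls. The controls were nearly equal, LKO-labelled replicates 2 and 3 were above them, and LKO-labelled replicate 1 was just below them. The means were 529.9 ± 177 CPM in the LKO-labelled livers and 390.2 ± 7.64 CPM in the controls (SD, n = 3 each), and the log2 difference was 0.44 (SE 0.28, 95% interval -0.20 to 1.09, edgeR adjusted p 0.845). In TPM the groups did not overlap, at 179, 388 and 273 TPM in the LKO-labelled livers and 151.5, 150.8 and 171 TPM in the controls, and the log2 difference was 0.76, beside a median of 0.35 over all genes on that scale. Such separation was common in TPM, where 2470 of 12497 genes (19.8%) were higher without overlap in the LKO-labelled livers and 41 (0.328%) lower. Scaled by library totals Cyp3a25 did not overlap either, at 410.1 to 775.0 CPM in the LKO-labelled livers and 329.8 to 382.1 CPM in the controls. The share of all genes without overlap was not computed on that scale. LKO-labelled replicates 2 and 3 are also the libraries with the most transcripts above 0, and the part of this in the Cyp3a25 values was not tested. Without LKO-labelled replicate 2 the log2 difference was 0.15.

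**Figure D2:**
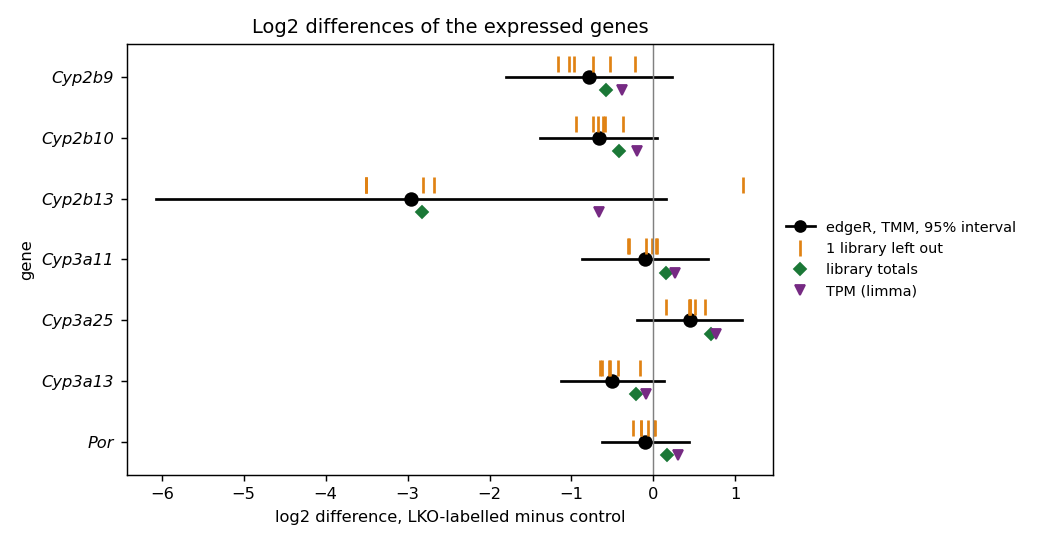
Log2 difference, LKO-labelled minus control, of the 7 tested genes on the x axis, with 1 row per gene. Black points are edgeR estimates with 95% intervals, orange ticks the estimates with 1 library left out, green diamonds those with library totals and purple triangles those from TPM. Every black interval crosses 0, and the ticks of Cyp2b13 run from -3.51 to 1.10.

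Cyp3a25 differed between livers in which transcript its reads were assigned to. GENCODE M21 annotates a coding transcript of 13 exons and 2000 bases and a transcript of 12 exons and 1914 bases that is classed as a target of nonsense-mediated decay, the pathway that removes mRNA with an early stop codon. The shorter one lacks exon 6, which has 89 bases and so is not a whole number of codons. Cyp3a59, the nearest copy of Cyp3a25 with 97.5% coding identity, has a transcript pair of the same kind. The exon is printed in capitals for both genes, each with 12 bases of the neighbouring exons in lower case, because reads over or across it bear on the split between transcripts, which also differ in length elsewhere. The exon of Cyp3a25 is at chr5:145993273-145993361 on the minus strand and that of Cyp3a59 at chr5:146096252-146096340 on the plus strand (GRCm38).
Cyp3a25: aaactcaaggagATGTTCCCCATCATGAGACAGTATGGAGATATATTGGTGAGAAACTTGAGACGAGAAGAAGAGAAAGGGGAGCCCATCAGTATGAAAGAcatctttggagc
Cyp3a59: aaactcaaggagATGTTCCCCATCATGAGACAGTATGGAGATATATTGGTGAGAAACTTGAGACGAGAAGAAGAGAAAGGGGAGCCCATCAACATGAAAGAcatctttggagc

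The exons differ at 2 bases and the flanks at none, so many reads over this site match both genes. The 12-exon transcript took 86.8%, 43.9% and 45.7% of the estimated counts of Cyp3a25 in LKO-labelled replicates 1, 2 and 3, against 89.9%, 42.2% and 52.2% in the control replicates. It was the main form in replicate 1 of both groups and stood near an even split in the other 4 livers, so the division did not follow the labels. The 13-exon coding transcript alone measured 49.6, 402 and 261 CPM in the LKO-labelled livers and 38.7, 225 and 182 CPM in the controls (log2 difference 0.68, SE 0.77, edgeR adjusted p 0.902). The 12-exon transcript measured 329, 319 and 221 CPM in the LKO-labelled livers and 357, 165.5 and 199.5 CPM in the controls (log2 difference 0.27, SE 0.33, edgeR adjusted p 0.909). The counts assigned to the 13-exon transcript thus ranged more widely within each group than the gene total did, whose controls lay within 381.8 to 397 CPM.

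Cyp3a59 itself measured 17.0, 33.2 and 15.5 CPM in the LKO-labelled livers and 9.21, 12.7 and 24.3 CPM in the controls, a log2 difference of 0.51 (SE 0.42, edgeR adjusted p 0.864). Its 12-exon transcript took 64.5%, 26.8% and 22.7% of its counts in the LKO-labelled livers and 85.7%, 12.3% and 63.9% in the controls. As in Cyp3a25 the share was high in replicate 1 of each group, but control replicate 3 was high in Cyp3a59 only. Estimated counts do not carry the error of the division between transcripts, which was not tested here.

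**Figure D3:**
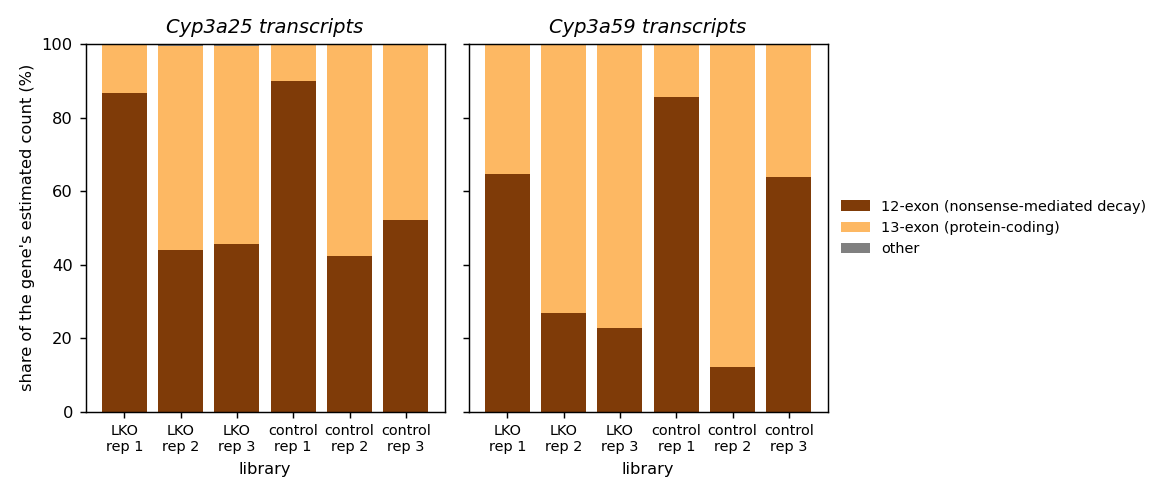
Share of the estimated counts of Cyp3a25 (left) and Cyp3a59 (right) assigned to the 12-exon transcript (dark), the 13-exon transcript (light) and others (grey), in percent, 1 bar per library with LKO-labelled livers left of controls. In Cyp3a25 the dark part is 86.8% and 89.9% in replicate 1 of the 2 groups and between 42.2% and 52.2% in the other livers.

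Cyp3a16, Cyp3a41a and Cyp3a44 were at or under 3 counts in every library. Cyp3a16 had 0, 1 and 0 counts in the LKO-labelled livers and 2, 0 and 1 in the controls. Cyp3a41a had 0, 1 and 2 counts in the LKO-labelled livers and 0, 0 and 1 in the controls. Cyp3a44 had 2, 0 and 0 counts in the LKO-labelled livers and 1, 0 and 0 in the controls. A limit of 3 counts per library is worth 0.126 to 0.133 CPM in the LKO-labelled libraries and 0.143 to 0.164 CPM in the controls, for counting error only, and no fold change is given. These 3 genes did not pass the filter. Cyp3a41a and Cyp3a44, the female-predominant CYP3A genes, had 1 and 0 counts in control replicate 3, where Cyp2b9 and Cyp2b13 were highest.

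Por encodes the reductase that serves all microsomal P450 enzymes. It measured 331, 263 and 234 CPM in the LKO-labelled livers and 343, 270.4 and 272 CPM in the controls, with replicate 1 the highest library of each group. The means were 276 ± 49.9 CPM in the LKO-labelled livers and 295 ± 41.4 CPM in the controls (SD, n = 3 each), and the log2 difference was -0.10 (SE 0.24, 95% interval -0.63 to 0.44, edgeR adjusted p 0.952). In TPM the groups did not overlap, at 110.5, 105 and 96.8 TPM in the LKO-labelled livers and 91.9, 74.6 and 87.5 TPM in the controls, as for 19.8% of all genes in that direction, and the log2 difference of 0.30 on that scale was under the median of 0.35 over all genes. A transcript of 2606 bases took 5.57% of Por counts in LKO-labelled replicate 1, and at most 1.24% in any other library. All protein-coding P450 genes of families 1 to 4 together had 106, 152 and 150 times the TPM of Por in the LKO-labelled livers, against 139, 229 and 163 times in the controls.

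Within those 80 P450 genes, the CYP3A members took 9.30%, 10.7% and 8.00% of TPM in the LKO-labelled livers and 5.72%, 6.86% and 8.84% in the controls. The controls ran lower, but control replicate 3 lay above LKO-labelled replicate 3. CYP2B members took 0.326%, 0.612% and 0.473% in the LKO-labelled livers and 0.471%, 0.327% and 1.21% in the controls, with the highest share again in control replicate 3. Cyp3a11 was 79.5%, 74.3% and 72.5% of CYP3A TPM in the LKO-labelled livers and 73.8%, 81.1% and 82.9% in the controls. The TPM of Cyp3a11 was 4.84, 3.28 and 3.07 times that of Cyp3a25 in the LKO-labelled livers and 3.56, 6.30 and 6.11 times in the controls. CYP3A summed over its 6 members to 2850, 3875 and 2494 CPM in the LKO-labelled livers and 2362, 3746 and 3424 CPM in the controls. The log2 ratio of those means was -0.05, and it was 0.21 with library totals and 0.32 when TPM was summed.

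The regulators of these genes were looked at next, from lists chosen by function. Over all genes tested, edgeR's unadjusted p was under 0.05 for 4.55%, the share to read each list's count against. Of 20 receptors and co-regulators, 19 were tested, 0 passed edgeR's adjusted threshold, 1 had an unadjusted p under 0.05, and 10 lay above 0 and 9 below, with a median log2 difference of 0.02 beside 0.01 over all genes. With library totals 16 lay above 0 and 3 below (median 0.28, beside 0.27), and in TPM 15 above and 4 below (median 0.36, beside 0.35). Nr1i3, which encodes CAR, measured 283, 525 and 376 CPM in the LKO-labelled livers and 733, 242 and 303 CPM in the controls. Control replicate 1, the liver with the most Nr1i3, had the least Cyp2b10 of the controls. Nr1i2, which encodes PXR, measured 62.8, 66.0 and 49.2 CPM in the LKO-labelled livers and 81.9, 48.4 and 65.6 CPM in the controls. Their log2 differences were -0.11 (SE 0.44) and -0.14 (SE 0.24), with edgeR adjusted p of 0.970 and 0.937. The list's smallest unadjusted p was that of Foxa2, a liver transcription factor, with 22.6, 21.9 and 15.97 CPM in the LKO-labelled livers and 11.5, 16.2 and 11.7 CPM in the controls (log2 difference 0.62, edgeR adjusted p 0.845). Next were Cebpb and Cebpa, C/EBP factors of liver gene expression, with log2 differences of -0.64 and -0.61 (edgeR adjusted p 0.845 each). The bile acid receptor gene Nr1h4, chosen after its values were seen, was the list's 1 gene lower without overlap, with 117.5, 127 and 125 CPM in the LKO-labelled livers and 155, 130.3 and 133 CPM in the controls. Of the 19 tested, 1 was thus lower and 0 higher without overlap, beside 4.55% and 4.79% over all genes.

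Other target genes of CAR and PXR were counted in the same way, with 37 of 40 tested, 0 past edgeR's adjusted threshold, 5 with an unadjusted p under 0.05, 16 above 0, 21 below and a median log2 difference of -0.09 beside 0.01 over all genes. The count turned with the scaling, to 23 above 0 and 14 below with library totals (median 0.16, beside 0.27) and to 26 above and 11 below in TPM (median 0.30, beside 0.35). Alas1, which starts haem synthesis and is induced by CAR and PXR ligands, measured 216, 191.5 and 296 CPM in the LKO-labelled livers and 470.4, 315 and 990.1 CPM in the controls (log2 difference -1.34, SE 0.42, edgeR adjusted p 0.845). In TMM-scaled CPM all 3 controls lay above all 3 LKO-labelled livers, and control replicate 3 was again the highest. Cyp1a2, a P450 of caffeine and arylamine metabolism, measured 208, 216 and 248 CPM in the LKO-labelled livers and 621, 387 and 301 CPM in the controls (log2 difference -0.96, edgeR adjusted p 0.845). Cyp2c37, an arachidonic acid hydroxylase, measured 234, 383 and 273 CPM in the LKO-labelled livers and 535, 687 and 391 CPM in the controls (log2 difference -0.86, edgeR adjusted p 0.845). With these, Cyp2a5 and Papss2, both chosen after their values were seen, made 5 of 37 genes lower without overlap and 0 higher, beside 4.55% lower and 4.79% higher over all genes. Overlap of genes in these lists was read in TMM-scaled CPM only, and it can depend on the scaling. Over all genes, 0.328% were lower without overlap in TPM.

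**Figure D4:**
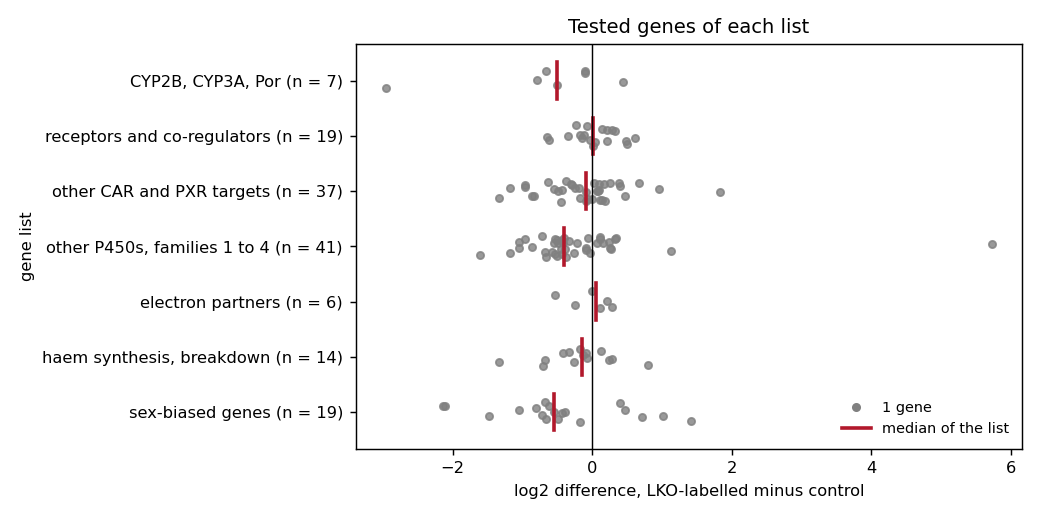
Log2 differences, LKO-labelled minus control, of the tested genes of each list on the x axis, 1 grey point per gene and a red line at the list's median, with the list names and numbers of tested genes down the page. The medians of the 7 lists drawn run from -0.55 for the sex-biased genes to 0.05 for the electron partners.

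The electron partners of P450 enzymes divided in direction. Of 6, all tested, 3 lay above 0 and 3 below (5 and 1 with library totals and in TPM), with a median log2 difference of 0.05, and 0 passed edgeR's adjusted threshold or had an unadjusted p under 0.05. Cyb5a, cytochrome b5, which passes electrons to CYP3A enzymes among others, measured 1466, 1500 and 1292 CPM in the LKO-labelled livers and 2034, 1955 and 2149 CPM in the controls, without overlap. Its means were 1419 ± 112 CPM in the LKO-labelled livers and 2046 ± 97.4 CPM in the controls (SD, n = 3 each), and its log2 difference was -0.53 (SE 0.25, edgeR adjusted p 0.845). Pgrmc2, a haem-binding membrane protein, was higher without overlap, at 44.8, 50.2 and 48.4 CPM in the LKO-labelled livers and 40.8, 40.5 and 36.0 CPM in the controls (log2 difference 0.29, edgeR adjusted p 0.845). Cyb5b, the form of cytochrome b5 on the outer mitochondrial membrane, overlapped, with a log2 difference of -0.24 (edgeR adjusted p 0.899). Of the 6, 1 was lower and 1 higher without overlap, beside 4.55% and 4.79% over all genes.

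Of 14 genes of haem synthesis and breakdown, all tested, 0 passed edgeR's adjusted threshold, 2 had an unadjusted p under 0.05, 4 lay above 0 and 10 below, with a median log2 difference of -0.15 beside 0.01 over all genes. The count turned with the scaling, to 8 above 0 and 6 below with library totals (median 0.09, beside 0.27) and to 11 above and 3 below in TPM (median 0.24, beside 0.35). Lower without overlap were 3 of the 14, beside 4.55% over all genes, and 0 were higher, beside 4.79%. The 3 were Alas1, Blvrb and Urod, the last chosen after its values were seen. Blvrb, a biliverdin reductase that is also abundant in red blood cells, measured 197, 103 and 114 CPM in the LKO-labelled livers and 221.5, 208 and 234 CPM in the controls (log2 difference -0.68, edgeR adjusted p 0.845). Alad, the second enzyme of haem synthesis, measured 163.5, 99.4 and 96.7 CPM in the LKO-labelled livers and 278, 139 and 170.0 CPM in the controls (log2 difference -0.71, edgeR adjusted p 0.845). Red blood cell markers (5 of 5 with a lower mean in the LKO-labelled group, none at 0 throughout) summed to between 438.5 and 1106 CPM in the LKO-labelled livers and between 727 and 1678 CPM in the controls. The part of these cells in the haem gene values was not tested.

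Beyond CYP2B and CYP3A, 41 of 45 listed microsomal P450 genes of families 1 to 4 were tested, 0 passed edgeR's adjusted threshold and 5 had an unadjusted p under 0.05. Of the 41, 11 lay above 0 and 30 below, with a median log2 difference of -0.40 beside 0.01 over all genes. The count was 17 above and 24 below with library totals (median -0.14) and 19 above and 22 below in TPM (median -0.04). Lower without overlap were 5 of the 41, beside 4.55% over all genes, and 1 was higher, beside 4.79%. The 5 were Cyp1a2, Cyp2a5, Cyp2c37, Cyp2d26 and Cyp4v3, of which Cyp2a5, Cyp2d26 and Cyp4v3 were chosen after their values were seen. The 1 higher without overlap was Cyp2c40, at 4.44, 0.974 and 1.05 CPM in the LKO-labelled livers and 0, 0.110 and 0 CPM in the controls, which is near the detection limit in the controls and has close copies, so no fold change is given. DESeq2 called 1 of the 41, Cyp2c40, and no gene of the other lists. Several genes stand in more than 1 of these lists, so the lists are not independent of each other.

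Sex-biased genes under growth hormone control were listed because Cyp2b9 and Cyp2b13 belong to that class. Of 25, 19 were tested, 0 passed edgeR's adjusted threshold, 3 had an unadjusted p under 0.05, 5 lay above 0 and 14 below, with a median log2 difference of -0.55 beside 0.01 over all genes. The count was 6 above and 13 below with library totals (median -0.22) and 8 above and 11 below in TPM (median -0.04). The male-biased genes named by the rule differed in sign. Cyp7b1, an oxysterol hydroxylase, measured 56.7, 65.1 and 95.6 CPM in the LKO-labelled livers and 163, 367 and 78.6 CPM in the controls (log2 difference -1.49, edgeR adjusted p 0.845). Elovl3, a fatty acid elongase, measured 85.9, 167 and 188 CPM in the LKO-labelled livers and 69.2, 105 and 43.9 CPM in the controls (log2 difference 1.02, edgeR adjusted p 0.845). Mup1 had a log2 difference of -2.11 (edgeR adjusted p 0.845), with control replicate 3 inside the range of the LKO-labelled livers. Stat5b, the transcription factor that growth hormone activates, was higher without overlap at 23.9, 26.2 and 25.2 CPM in the LKO-labelled livers and 23.6, 15.4 and 18.3 CPM in the controls. Prom1 was lower without overlap at 1.68, 0.929 and 1.38 CPM in the LKO-labelled livers and 2.18, 2.08 and 2.05 CPM in the controls. Both were chosen after their values were seen. Of the 19 tested, 1 was thus lower and 1 higher without overlap, beside 4.55% and 4.79% over all genes.

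Each member with a mean of at least 10 CPM was compared over the 6 libraries with 6123 genes at that level, by Pearson's r of log2 CPM. Likeness over 6 libraries describes these livers only, and all genes share the libraries' depth and scaling. The r values given for each member are the highest among the 6123, so high values were to be found in any case. Cyp3a11 was most like Uox, which encodes urate oxidase (r = 0.993), followed by Serpina3m (0.990) and Srp54a (0.989). Por was most like Sephs2 (0.997), which encodes a selenophosphate synthetase and measured 1236, 645.5 and 507 CPM in the LKO-labelled livers and 1296, 746 and 740.1 CPM in the controls, highest in replicate 1 of each group as Por was. Cyp3a25 was most like Kynu (0.989), which encodes kynureninase, then Ppp5c (0.988) and Nit1 (0.985). Cyp3a13 was most like Pum3 (0.987), Pdia4 (0.981) and Ugt2b1 (0.976). Cyp2b10 was most like Lyplal1 (0.984), B4gat1 (0.984) and Sdcbp (0.977), and Cyp2b9 was most like Sdhc (0.977) and Asna1 (0.948). Members were left out of the genes compared. Between members, the highest r was 0.81, for Cyp2b9 and Cyp2b13. Both were highest in control replicate 3. Cyp2b9 shares 19.6% of its stretches of 31 bases with Cyp2b13, so reads can be divided between them.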

How the data were processed

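Liver poly-A RNA of 6 male mice was sequenced as read pairs, per the labels' protocols. Each deposited file gives an estimated count and a TPM for 115221 transcripts, with the columns that Salmon writes, per the file headers. The submitters' processing notes list, without roles, the build GRCm38 and the tools RSEM 1.2.8, Bowtie2 2.2.5 and DESeq. The quantifier's version and its transcriptome are not given there. As deposited, an estimated count carries the depth of its library, whereas the authors' TPM values are scaled within each library.

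Transcript identifiers were matched to GENCODE M21 without version (113664 matched, 1557 did not and were left out). Estimated counts were summed per gene, rounded to whole numbers, filtered with filterByExpr, scaled with TMM and tested with edgeR 4.0.16 in R 4.3.3 (quasi-likelihood, two-sided, Benjamini-Hochberg, threshold 0.05). Intervals are the log2 difference plus or minus its standard error times the t quantile at 8.37 degrees of freedom. Family sums, transcript shares, gene lists and marker sums have no test. Use of strand is not stated, so reads of antisense and overlapping genes cannot be told apart. Precision comes from 20899135 to 21750007 counts per library and, above all, from 3 animals per group. The series' design text names these as biological replicates, and the replicate numbers carry no stated pairing. Between same-numbered libraries, deviations from group means correlated at 0.195, 0.275 and -0.145, which does not decide whether any were handled together.

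Members and lists were chosen with earlier results of these data known. Named genes are the members, G3bp1, the 3 tested genes with the smallest unadjusted p in each list, Nr1i2, Nr1i3, Cyb5a and Alas1, and the 3 genes most like each member, leaving out predicted names (Gm followed by digits, or ending in Rik). A gene that this rule takes is not reported here. Alternatives were DESeq2 1.42.0, other scalings and filters, limma 3.58.1 on voom weights and on log2(TPM + 0.1) and log2(TPM + 1), offsets for effective length and for a length trend (loess, span 0.5), a replicate block and leaving out each library. Sequence facts were computed with Python 3.11.15.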

Additional observations from a re-analysis of the deposited data

How the results depend on the processing

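No member passed the adjusted threshold under any of the 16 alternatives tried per gene. Cyp2b9, Cyp2b10 and Cyp3a13 stayed below 0 in all of them, from -1.16 to -0.225, from -0.95 to -0.19 and from -0.65 to -0.09. Cyp3a25 stayed above 0, from 0.15 to 0.76, also with its 13-exon (0.676) and 12-exon (0.268) transcripts taken alone, an alternative added after seeing the data. Over all genes, edgeR's count of 0 became 11 with DESeq2, and 0 to 3 when 1 library was left out, with 3 without LKO-labelled replicate 1. The sign turned for Cyp2b13 without control replicate 3, where leaving out 1 library gave -3.512 to 1.099. It turned for Cyp3a11 with library totals (0.148) and TPM (0.262 with either pseudocount), and leaving out 1 library gave -0.312 to 0.043. It turned for Por with library totals (0.162), log2(TPM + 0.1) (0.302) and log2(TPM + 1) (0.299), and leaving out 1 library gave -0.251 to 0.024. The CYP3A sum moved to 0.323 in TPM. The cause was not tested. The replicate block, used although no pairing by number is stated, called 0 genes and gave Cyp2b13 a log2 difference of -0.886 and Cyp3a25 one of 0.389.

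Depth limits Cyp3a16, Cyp3a41a, Cyp3a44 and, outside control replicate 3, Cyp2b13, whereas for the other members 3 animals per group limit the precision. A difference inside an interval that crosses 0 is not shown to be absent.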
